A study of Mus musculus with 15 samples.

Results

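The 47 genes described here carry out DNA replication and cell division, and they were chosen by name from 22165 genes counted in dendritic cells of the mouse thymus. They were split by role into 20 genes of S phase, 4 genes of the G1/S transition and 23 genes of mitosis, and all 47 were in the table and passed the filter on low counts. KO mice carried Itgax-cre with floxed Stk11 alleles, which removes the kinase LKB1 from cells that express CD11c, and WT mice were the controls. All mice, male and female, were on the C57BL/6 background, were 8 to 12 weeks old and had been injected under the skin with B16 melanoma cells making Flt3L, the cytokine that drives the growth of dendritic cells. This treatment was shared by KO and WT mice, and no untreated thymus was analysed here. Plasmacytoid dendritic cells (pDC), conventional dendritic cells of type 2 (cDC2) and conventional dendritic cells of type 1 (cDC1) were sorted 9 to 12 days later. The 15 libraries of 3′ RNA sequencing fell into 6 groups: 3 pDC KO, 3 pDC WT, 3 cDC2 KO, 2 cDC2 WT, 2 cDC1 KO and 2 cDC1 WT. The labels do not say whether replicates came from separate mice, or whether mice were pooled, so p-values measure the spread between libraries.

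A cell that commits to division first makes cyclin E and E2F transcription factors, which switch on the genes of S phase. Origins of replication are then loaded with the MCM helicase, deoxynucleotides are made, and forks copy the DNA. Cyclin A and cyclin B with CDK1 later drive mitosis, in which kinases and kinesins build the spindle and the anaphase-promoting complex ends the division. Many of these transcripts are made only in the phases that need them, and they are used as marks of dividing cells. Conventional dendritic cells and their precursors are known to divide in tissues under Flt3L, whereas mature pDC are known as largely non-dividing cells.

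Total counts per library ran from 3928164 in cDC2 WT 1 to 12142712 in cDC2 KO 2. Levels below are CPM (counts scaled to a fixed total) on TMM-scaled library sizes, and the 3′ tags give no measure per transcript length, so levels are compared between libraries and not between genes. The mean log2 CPM of each subset's marker list was highest in the groups sorted as that subset. By mean summed level the cDC1 list was at 8080 CPM in pDC KO and 7901 CPM in pDC WT, against 7602 CPM in cDC1 KO and 10677 CPM in cDC1 WT. Stk11 read 43.5, 33.2 and 36.6 CPM in pDC KO against 66.8, 40.6 and 46.7 CPM in pDC WT. In cDC2 it read 36.1, 28.2 and 29.2 CPM in KO against 34.2 and 34.9 CPM in WT. In cDC1 it read 30.6 and 18.4 CPM in KO against 35.6 and 54.2 CPM in WT. The log2 difference was −0.44 ± 0.29 (SE) in pDC, −0.15 ± 0.33 in cDC2 and −0.88 ± 0.36 in cDC1. It passed the threshold in no subset. The labels do not name the deleted exons, and a 3′ tag outside them does not check the deletion. The 10 melanoma markers summed to 1.82 to 19.5 CPM in a library, highest in pDC WT (mean 11.3 CPM, against 4.77 CPM in pDC KO), nearly all of it Mitf, while Dct, Gpr143 and Sox10 had no count in any library. The summed level of 19 thymocyte and T cell markers was higher in pDC, at 581 to 628 CPM in pDC KO and 613 to 753 CPM in pDC WT, against 109 to 126 CPM in cDC2 KO, 139.9 to 219 CPM in cDC2 WT, 165 to 266 CPM in cDC1 KO and 269 to 296 CPM in cDC1 WT. By mean log2 CPM this list was at 3.27 in pDC KO and 3.32 in pDC WT, against 3.14 in cDC1 WT, 2.54 in cDC1 KO, 1.77 in cDC2 WT and 1.39 in cDC2 KO. Most of the pDC excess in the sum lay in Cd4, Cd8b1 and Dntt, while Cd3e averaged 2.30 CPM in pDC KO and 4.36 CPM in pDC WT. The part of thymocytes and T cells in the results below was not tested. At equal depth, 10846 to 11225 genes were detected in pDC and 10840 and 11359 in cDC2 WT, against 12430 to 12760 in the other 7 libraries.

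The share of promoters with each of 3 short motifs differed between the S phase and mitosis genes. The genes were chosen by name and not by motif. The motifs searched are known from promoters of such genes, so matches were likely from the start. RefSeq windows of GRCm38.p6, from 250 bases before to 50 bases after the start of a gene, were given for 40 of the 47 genes and were searched on both strands. An E2F motif (TTTGGCGC, TTTCGCGC, TTTCCCGC or TTTGCCGC) was in 8 of 21 windows of S phase genes (38.1%), in 1 of 20 windows of mitosis genes (5%) and in 2.26% of all 32851 windows. A CHR, the cell cycle homology region bound by the repressor complex DREAM (TTTGAA or TTCGAA), was in 4 windows of S phase genes (19%), in 16 windows of mitosis genes (80%) and in 19.2% of all windows. A CCAAT box was in 13 windows of S phase genes (61.9%), in 18 windows of mitosis genes (90%) and in 37.4% of all windows. One gene can have more than 1 window, and these matches are a description of letters, not of binding. The 4 windows below were picked for holding these motifs, among genes that were lower in pDC in every comparison, with matches in capitals. Rrm2, with no E2F match, and Nusap1, with no CHR or CCAAT match, were passed over, though each passed the threshold in 5 comparisons. Mcm5 (chr8:75109259-75109558, plus strand) has 2 E2F matches that overlap, and Mcm3 (chr1:20820263-20820562, minus strand) has 2 that lie apart, both after the start of the gene. Top2a (chr11:99024140-99024439, minus strand) has 4 CHR and 6 CCAAT matches, and Kif11 (chr19:37376132-37376431, plus strand) has 1 CHR and 1 CCAAT match. In the Mcm5 and Mcm3 lines capitals mark E2F matches alone, and in the Top2a and Kif11 lines they mark CHR and CCAAT matches.
Mcm5: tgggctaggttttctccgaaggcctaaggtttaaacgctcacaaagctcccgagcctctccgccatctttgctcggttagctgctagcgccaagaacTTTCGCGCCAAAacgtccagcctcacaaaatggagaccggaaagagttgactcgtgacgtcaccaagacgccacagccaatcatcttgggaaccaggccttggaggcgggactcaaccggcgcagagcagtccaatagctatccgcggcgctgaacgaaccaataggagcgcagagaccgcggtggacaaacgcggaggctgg
Mcm3: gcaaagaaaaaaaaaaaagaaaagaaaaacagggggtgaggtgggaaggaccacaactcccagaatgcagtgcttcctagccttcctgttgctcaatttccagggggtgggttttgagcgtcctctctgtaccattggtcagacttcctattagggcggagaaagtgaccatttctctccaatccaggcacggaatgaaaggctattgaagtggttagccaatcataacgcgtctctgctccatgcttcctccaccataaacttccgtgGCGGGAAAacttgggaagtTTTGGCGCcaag
Top2a: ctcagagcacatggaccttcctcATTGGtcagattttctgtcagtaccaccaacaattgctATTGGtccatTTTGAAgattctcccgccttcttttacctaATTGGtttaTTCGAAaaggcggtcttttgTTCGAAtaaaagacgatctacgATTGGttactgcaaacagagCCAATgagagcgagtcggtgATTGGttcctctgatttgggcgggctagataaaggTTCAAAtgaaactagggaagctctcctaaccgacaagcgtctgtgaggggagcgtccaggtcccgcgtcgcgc
Kif11: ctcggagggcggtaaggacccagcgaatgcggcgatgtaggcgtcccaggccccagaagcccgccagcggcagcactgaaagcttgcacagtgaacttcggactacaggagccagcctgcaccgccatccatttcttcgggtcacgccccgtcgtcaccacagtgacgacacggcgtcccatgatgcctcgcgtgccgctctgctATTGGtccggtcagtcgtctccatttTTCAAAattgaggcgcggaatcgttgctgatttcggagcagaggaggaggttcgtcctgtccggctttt

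**Figure D1:**
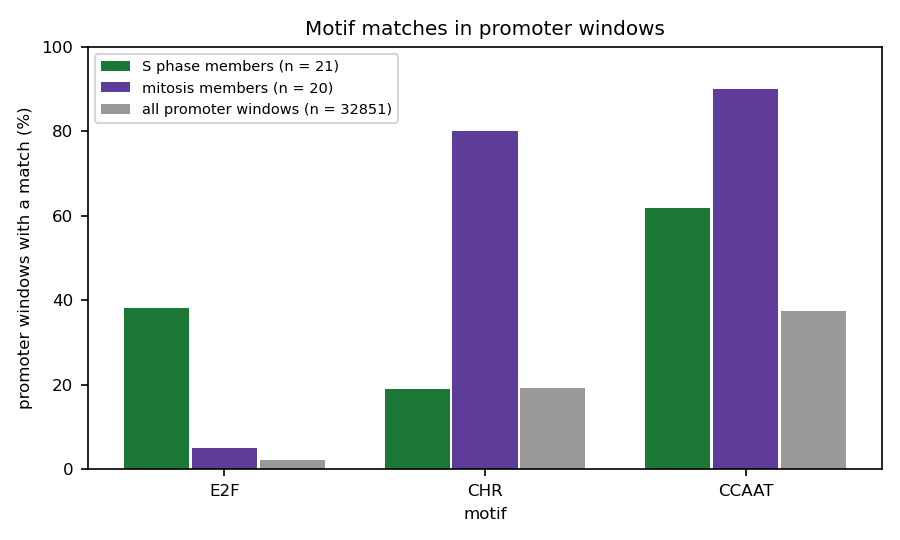
Share of RefSeq promoter windows with a match to each motif (y axis, percent) for S phase members, mitosis members and all windows. E2F matches were in 38.1% of S phase windows and CHR matches in 80% of mitosis windows, against 2.26% and 19.2% of all windows.

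Cell cycle transcripts were lower in pDC than in either conventional subset, in KO and in WT mice alike. Summed over the 47 genes, the level was 712, 842 and 871 CPM in pDC KO and 606, 803 and 772 CPM in pDC WT. It was 3835, 3834 and 4641 CPM in cDC2 KO, 3666 and 4336 CPM in cDC2 WT, 2958 and 3943 CPM in cDC1 KO, and 2624 and 2160 CPM in cDC1 WT. The highest pDC library thus stood below the lowest conventional library. In bulk RNA, fewer dividing cells and less RNA per dividing cell cannot be told apart. By group mean, 46 of the 47 genes were lowest in a pDC group (18 in pDC KO, 28 in pDC WT) and 1 in cDC2 WT.

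**Figure D2:**
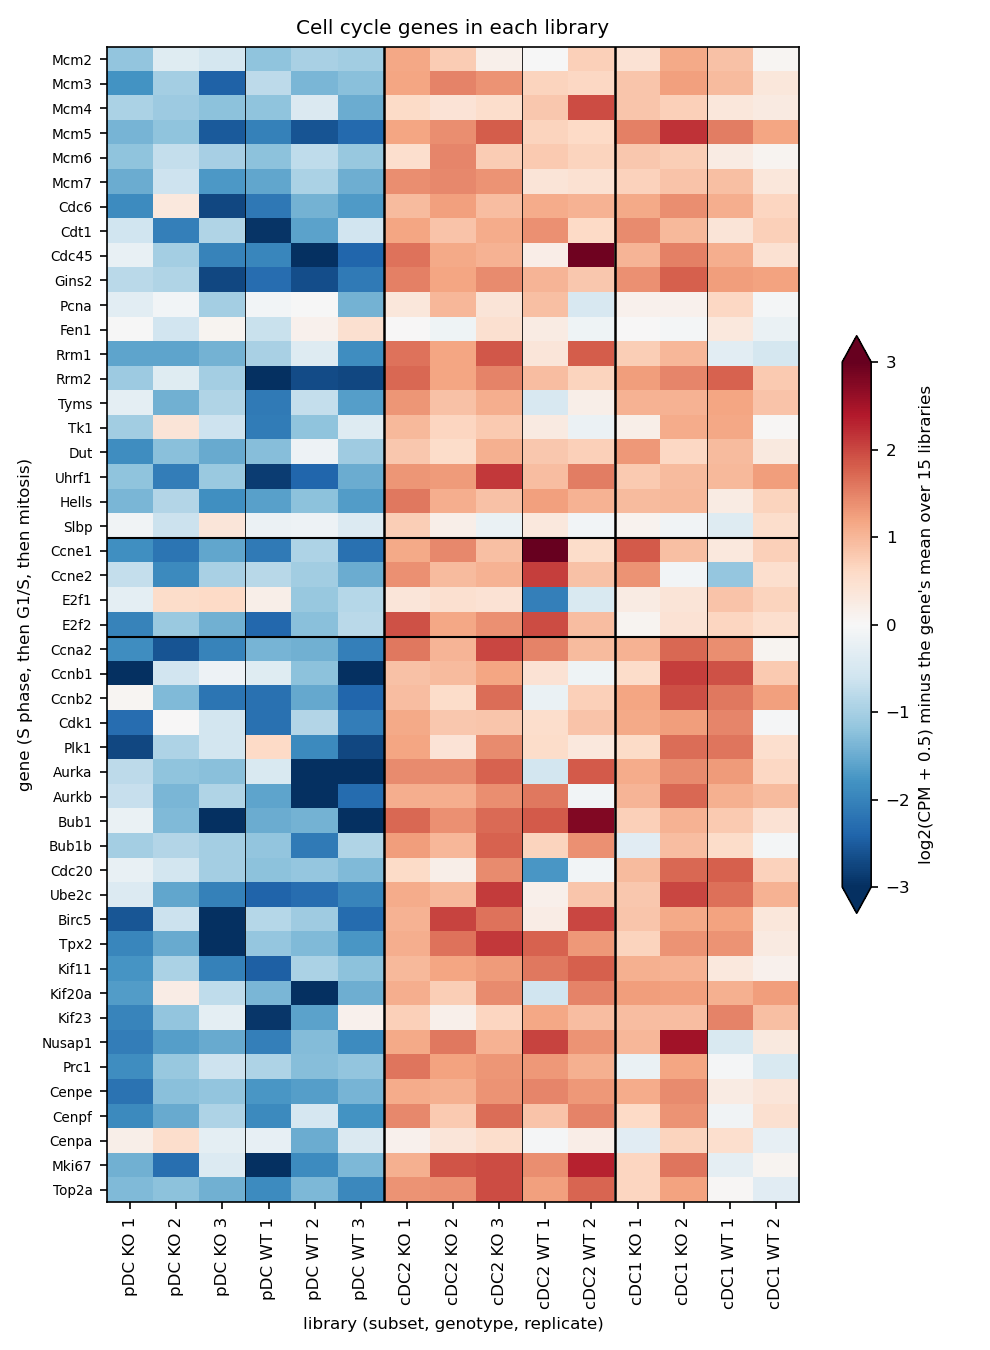
Each row is a gene and each column a library. Colour gives log2(CPM + 0.5) minus the gene's mean over the 15 libraries, from blue (lower) to red (higher), and the 6 pDC columns on the left are blue for most of the 47 genes.

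The difference was tested gene by gene with edgeR's quasi-likelihood test, with p-values adjusted over 11746 tested genes and a threshold of 0.05. In pDC KO against cDC1 KO, 36 of the 47 genes were lower and none higher, with a median log2 difference of −2.30, against 12.4% of all tested genes lower and a median of −0.09. In pDC WT against cDC1 WT, 38 were lower and none higher (median −2.01), against 14.8% of all genes and a median of −0.05. Without library cDC1 WT 1, 23 of the 47 were lower. In pDC KO against cDC2 KO, 37 were lower (median −2.40), against 14.9% of all genes and a median of −0.08. In pDC WT against cDC2 WT, 38 were lower (median −2.63), against 12.2% of all genes and a median of 0.07. Of the genes lower in pDC than in cDC1, 33 were called in both genotypes, which is 91.7% of the KO calls and 86.8% of the WT calls. Against cDC2, 36 were called in both, 97.3% of the KO calls and 94.7% of the WT calls. The KO and WT libraries of these comparisons are not shared, but the pDC libraries serve both conventional subsets. The same overlap was not worked out over all tested genes, so it is not shown to be particular to the 47.

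**Figure D3:**
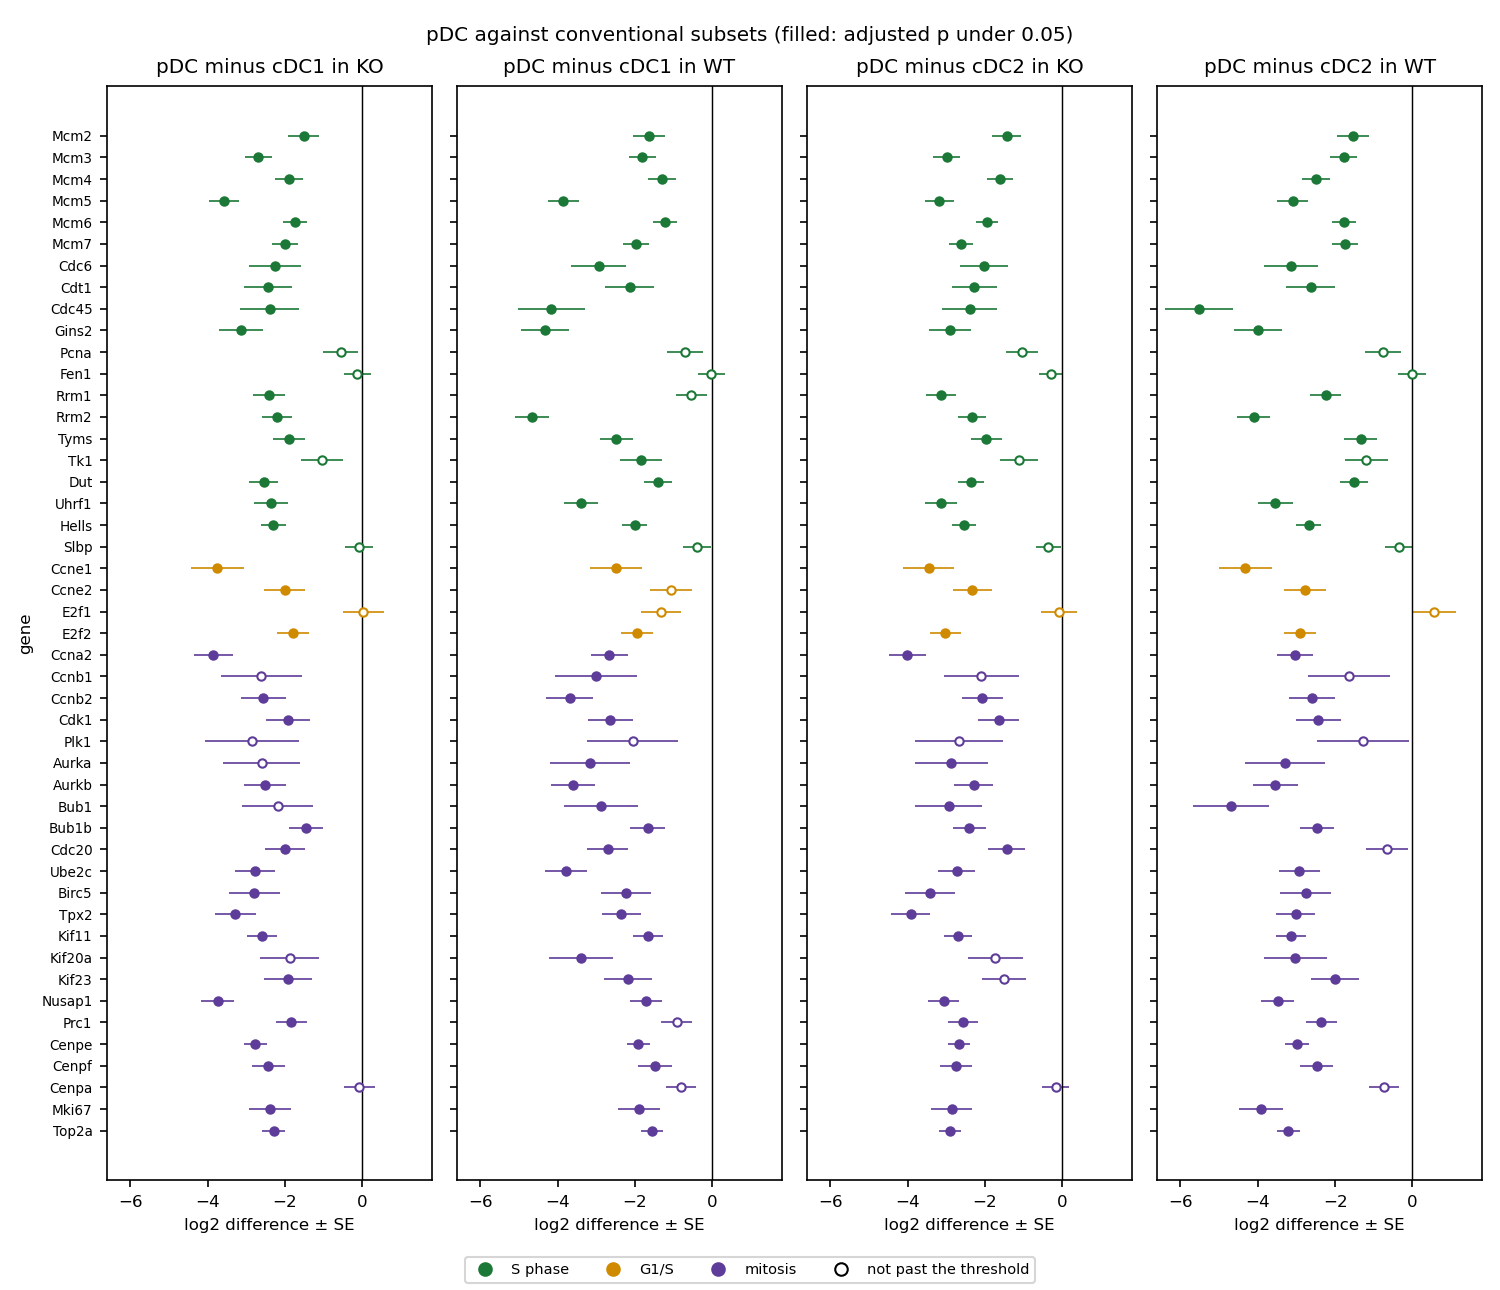
Log2 difference with its standard error for each of the 47 genes in 4 comparisons of pDC with a conventional subset, coloured by class. Filled points passed the threshold, from 36 genes in pDC KO against cDC1 KO to 38 in each WT comparison.

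Origin licensing and the replicative helicase moved as a whole. All 10 members (Mcm2 to Mcm7, which form the helicase ring, Cdc6 and Cdt1, which load it, and Cdc45 and Gins2, which activate it) were lower in pDC in all 4 comparisons. Mcm5 read 6.30, 7.22 and 2.63 CPM in pDC KO and 3.91, 2.45 and 3.06 CPM in pDC WT. It read 40.2, 46.3 and 62.0 CPM in cDC2 KO, 27.7 and 26.4 CPM in cDC2 WT, 50.6 and 79.3 CPM in cDC1 KO, and 51.1 and 40.2 CPM in cDC1 WT. No pDC library overlapped a conventional library, and the log2 difference was −3.58 ± 0.40 (SE) against cDC1 in KO (adjusted p = 3.66e-06) and −3.86 ± 0.41 in WT (adjusted p = 1.8e-06). Against cDC2 it was −3.19 ± 0.37 in KO (adjusted p = 4.61e-06) and −3.10 ± 0.40 in WT (adjusted p = 2.22e-05).

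Mcm3 read 26.1, 45.3 and 16.8 CPM in pDC KO and 52.9, 35.1 and 38.4 CPM in pDC WT, against 142 to 260.2 CPM in cDC2 and 117 to 217 CPM in cDC1. Its difference from cDC2 was −2.99 ± 0.34 in KO and −1.78 ± 0.35 in WT (adjusted p = 2.99e-06 and 0.00109). The groups stayed apart in each of these comparisons. Gins2 was near the floor of detection in pDC, at 2.70, 2.50 and 0.350 CPM in KO and 0.651, 0.387 and 0.793 CPM in WT. It read 9.34 to 19.1 CPM in every conventional library, and its difference from cDC1 was −3.13 ± 0.57 in KO and −4.33 ± 0.62 in WT (adjusted p = 0.000592 and 5.4e-05). Cdc45 rested on 7, 0 and 5 counts in the pDC WT libraries, so its fold is imprecise (−5.53 ± 0.88 against cDC2 WT, adjusted p = 0.000161). Cdt1 lies wholly inside Gm20388 on the same strand in GENCODE M21, and Gm20388 had no count in any library, so reads of the shared stretch cannot be assigned with certainty.

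Deoxynucleotide supply fell less evenly, with 4 of its 5 members lower in each of the 4 comparisons. Rrm2 (chr12:24708241-24714146, GRCm38) encodes the small subunit of ribonucleotide reductase that is made in dividing cells. It read 5.70, 9.72 and 5.95 CPM in pDC KO and 0.781, 1.55 and 1.47 CPM in pDC WT. It read 42.7, 29.1 and 36.3 CPM in cDC2 KO, 24.3 and 20.2 CPM in cDC2 WT, 30.5 and 35.6 CPM in cDC1 KO, and 43.9 and 22.03 CPM in cDC1 WT. All 6 pDC libraries lay below all 9 conventional libraries. The log2 difference from cDC1 was −2.21 ± 0.39 in KO and −4.67 ± 0.44 in WT (adjusted p = 0.000422 and 5.27e-07), and from cDC2 −2.33 ± 0.36 in KO and −4.11 ± 0.43 in WT (adjusted p = 0.000105 and 2.46e-06). Rrm1, the large subunit, was lower in pDC in 3 of the 4 comparisons. It read 21.0, 21.0 and 23.5 CPM in pDC KO and 32.2, 48.1 and 17.1 CPM in pDC WT, which overlapped the 50.4 and 43.9 CPM of cDC1 WT (−0.54 ± 0.41, adjusted p = 0.361). Tyms and Dut, which make and protect the thymidylate pool, were lower in all 4, and Tk1, which salvages thymidine, passed only in pDC WT against cDC1 WT (−1.84 ± 0.55, adjusted p = 0.0177).

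Rrm2b, the small subunit that p53 induces and that supplies deoxynucleotides outside S phase, went the other way. It was no member of the 47 and read 47.8, 30.8 and 33.4 CPM in pDC KO and 72.0, 64.9 and 39.1 CPM in pDC WT, against 10.6 to 25.98 CPM in all 9 conventional libraries. It was higher in pDC in all 4 comparisons, by 1.26 ± 0.37 on the log2 scale against cDC1 in KO and 1.72 ± 0.38 in WT (adjusted p = 0.021 and 0.00259), and by 1.43 ± 0.33 against cDC2 in KO and 1.48 ± 0.38 in WT (adjusted p = 0.00316 and 0.00799).

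Pcna, Fen1 and Slbp were the S phase genes that passed in none of the 4 comparisons. Pcna, the sliding clamp of the polymerases, read 24.6, 29.2 and 14.9 CPM in pDC KO and 29.0, 30.4 and 11.3 CPM in pDC WT. It read 39.1, 62.6 and 40.5 CPM in cDC2 KO, 58.5 and 21.8 CPM in cDC2 WT, 33.8 CPM in each cDC1 KO library, and 47.6 and 29.5 CPM in cDC1 WT. The WT groups overlapped, and none of the 4 differences passed, with values between −1.05 ± 0.42 (cDC2, KO) and −0.56 ± 0.46 (cDC1, KO). The pseudogene Pcna-ps2 was counted apart and read at most 3.09 CPM, and its level is uncertain where reads could be split between near-identical copies. Fen1, the flap nuclease, gave differences of −0.29 ± 0.32 to −0.01 ± 0.36, and Slbp, which binds histone mRNA, −0.39 ± 0.36 to −0.08 ± 0.36, and neither passed in any comparison. Uhrf1 and Hells, which copy DNA methylation and remodel chromatin behind the fork, were lower in pDC in all 4, Hells at 14.9 to 29.3 CPM in pDC against 64.7 to 164 CPM in the conventional libraries.

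Among the G1/S genes, cyclin E fell and E2f1 did not pass. Ccne1, cyclin E1, read 1.1996, 0.833 and 1.58 CPM in pDC KO and 0.912, 2.71 and 0.793 CPM in pDC WT. It read 12.8, 16.0 and 10.9 CPM in cDC2 KO, 51.2 and 8.43 CPM in cDC2 WT, 21.5 and 10.9 CPM in cDC1 KO, and 7.04 and 9.47 CPM in cDC1 WT. It was lower in pDC in all 4 comparisons, by −3.46 ± 0.66 against cDC2 in KO and −4.32 ± 0.68 in WT (adjusted p = 0.000671 and 0.000147), and the 2 cDC2 WT libraries differed widely. E2f1 read 6.90, 12.9 and 13.3 CPM in pDC KO and 9.77, 3.61 and 4.53 CPM in pDC WT, against 11.3, 12.1 and 11.8 CPM in cDC2 KO, 1.70 and 6.18 CPM in cDC2 WT, 10.3 and 11.4 CPM in cDC1 KO, and 15.9 and 14.02 CPM in cDC1 WT. Only the WT pDC and cDC1 groups did not overlap, and there the difference was −1.33 ± 0.53 (adjusted p = 0.0695). E2f2, another activator of the family, was lower in pDC in all 4 comparisons, from −1.79 ± 0.42 (cDC1, KO) to −3.03 ± 0.41 (cDC2, KO). Ccne2 was lower in 3 of the 4, all but pDC WT against cDC1 WT (−1.06 ± 0.54, adjusted p = 0.158).

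**Figure D4:**
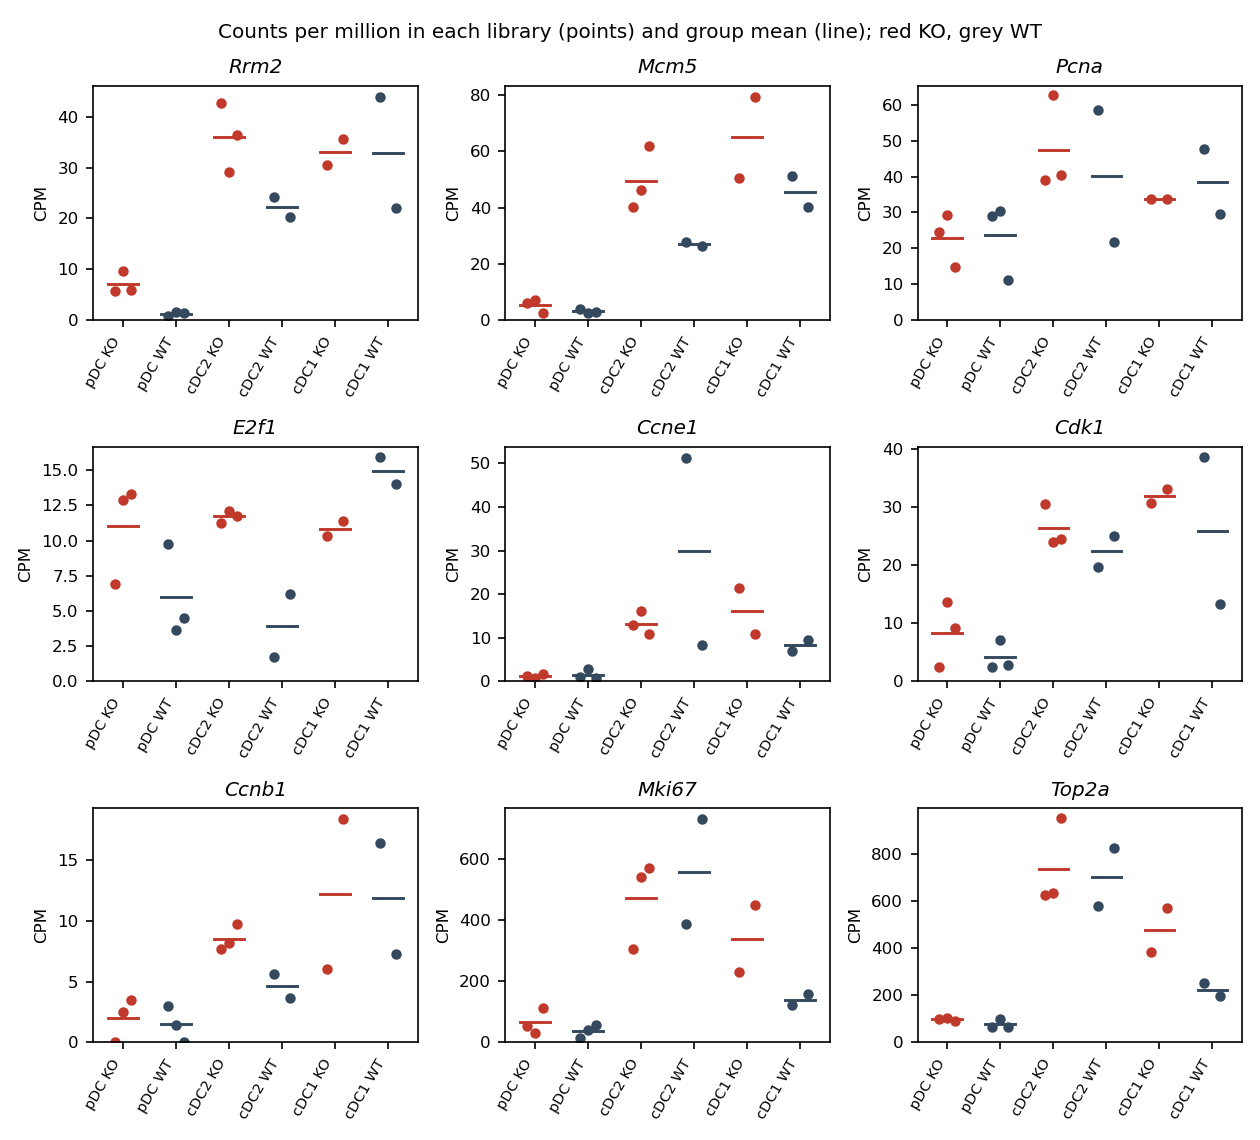
CPM of 9 genes (y axis, each on its own scale from 0) in each library of the 6 groups, with KO in red and WT in grey, points for libraries and lines for group means. Rrm2, Mcm5, Ccne1, Cdk1, Mki67 and Top2a are lower in all pDC libraries than in the libraries of cDC2 and of cDC1, except for 1 Cdk1 pair (13.6 CPM in pDC KO 2 and 13.3 CPM in cDC1 WT 2), while Pcna and E2f1 overlap.

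Each role in mitosis had genes that were lower in pDC, and none had a gene that was higher. Mki67, which coats mitotic chromosomes and is the usual histological mark of dividing cells, read 53.7, 30.4 and 111 CPM in pDC KO and 14.2, 39.6 and 57.1 CPM in pDC WT. It read 306, 539 and 571 CPM in cDC2 KO, 385 and 729 CPM in cDC2 WT, 229 and 448 CPM in cDC1 KO, and 121 and 156 CPM in cDC1 WT. Within each genotype no pDC library reached a conventional library. The difference was −2.38 ± 0.55 against cDC1 in KO and −1.90 ± 0.54 in WT (adjusted p = 0.00466 and 0.0163), and −2.86 ± 0.52 against cDC2 in KO and −3.91 ± 0.57 in WT (adjusted p = 0.000646 and 0.000105).

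Top2a, the topoisomerase that untangles sister chromatids, read 97.3, 105 and 90.9 CPM in pDC KO and 66.7, 96.9 and 63.8 CPM in pDC WT. It read 624, 633 and 949.6 CPM in cDC2 KO, 577 and 823 CPM in cDC2 WT, 383 and 572 CPM in cDC1 KO, and 252 and 194 CPM in cDC1 WT. The pDC libraries were the lowest 6 of the 15, and the difference ran from −1.56 ± 0.29 (cDC1, WT, adjusted p = 0.000702) to −3.21 ± 0.30 (cDC2, WT, adjusted p = 8.91e-07). Cenpe, a kinesin of the kinetochore, was as clear, at 25.04, 48.7 and 51.8 CPM in pDC KO and 34.5, 37.3 and 44.3 CPM in pDC WT, against 140.0 to 325 CPM in all conventional libraries. Its difference was −2.77 ± 0.30 from cDC1 and −2.68 ± 0.28 from cDC2 in KO (adjusted p = 2.73e-06 and 1.32e-06). Cenpf followed it, whereas Cenpa, the histone that marks the centromere, overlapped between subsets in KO and passed nowhere (−0.82 ± 0.39 to −0.08 ± 0.40).

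Cdk1, the kinase that drives entry into mitosis, read 2.40, 13.6 and 9.11 CPM in pDC KO and 2.47, 7.10 and 2.83 CPM in pDC WT. It read 30.5, 24.0 and 24.4 CPM in cDC2 KO, 19.7 and 25.002 CPM in cDC2 WT, 30.6 and 33.1 CPM in cDC1 KO, and 38.5 and 13.3 CPM in cDC1 WT. It was lower in pDC in all 4 comparisons, by −1.65 ± 0.52 (cDC2, KO, adjusted p = 0.0269) to −2.64 ± 0.58 (cDC1, WT, adjusted p = 0.00256). Ccna2, cyclin A2, was at 1.25 to 2.40 CPM in pDC KO and 2.04 to 3.52 CPM in pDC WT, against 10.6 to 41.5 CPM in the conventional libraries, and its difference reached −4.01 ± 0.48 against cDC2 in KO (adjusted p = 5.13e-06). Ccnb2 was lower in all 4 as well. Ccnb1, cyclin B1, read 0, 2.50 and 3.50 CPM in pDC KO and 2.995, 1.42 and 0 CPM in pDC WT. It read 7.70, 8.14 and 9.73 CPM in cDC2 KO, 5.58 and 3.61 CPM in cDC2 WT, 6.02 and 18.4 CPM in cDC1 KO, and 16.4 and 7.28 CPM in cDC1 WT. No pDC library overlapped a conventional library, but it passed only against cDC1 in WT (−3.01 ± 1.06, adjusted p = 0.0423).

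The kinases and the checkpoint of mitosis were called less evenly, and several had few counts. Aurkb, the kinase of the chromosomal passenger complex, and Bub1b, of the spindle checkpoint, were lower in pDC in all 4 comparisons, and Aurka and Bub1 in 3. Plk1 passed in none, with 0 to 35 counts in a pDC library and differences of −2.85 ± 1.21 to −1.28 ± 1.18. Ube2c and Cdc20, which let the anaphase-promoting complex act, were both lower in 3 comparisons, and in pDC WT against cDC2 WT only Ube2c passed (Cdc20 −0.65 ± 0.55, adjusted p = 0.427). Ube2c read 11.4, 4.86 and 3.33 CPM in pDC KO and 2.47, 2.71 and 3.51 CPM in pDC WT, against 17.0 to 66.9 CPM in the conventional libraries.

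Of 7 spindle and midzone genes, 6 were lower in pDC KO than in cDC1 KO, 6 in pDC WT than in cDC1 WT, 5 in pDC KO than in cDC2 KO and 7 in pDC WT than in cDC2 WT. Kif11, the kinesin that pushes spindle poles apart, read 10.2, 18.2 and 8.41 CPM in pDC KO and 6.12, 18.3 and 14.8 CPM in pDC WT, against 70.6 to 124 CPM in cDC2 and 38.96 to 75.6 CPM in cDC1. Nusap1, which bundles spindle microtubules, read 8.10, 10.97 and 12.3 CPM in pDC KO and 8.20, 14.3 and 9.41 CPM in pDC WT, against 74.9 to 147 CPM in cDC2 and 25.8 to 208 CPM in cDC1. Both stayed below every conventional library. Tpx2, an activator of Aurora A, gave −3.92 ± 0.50 against cDC2 in KO (adjusted p = 1.34e-05).

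The genes of these pathways outside the 47 were counted from lists chosen by function. Of 46 other replication genes, 19 were lower in pDC KO than in cDC1 KO, 17 in pDC WT than in cDC1 WT, 29 in pDC KO than in cDC2 KO and 24 in pDC WT than in cDC2 WT, with 1 higher in pDC WT than in cDC1 WT and none in the other 3. Over all tested genes 12.4%, 14.8%, 14.9% and 12.2% were lower in the same comparisons. Dna2, a nuclease of Okazaki fragment maturation, was at −5.16 and −4.39 against cDC1 in KO and WT, and Lig1, the ligase that seals those fragments, at −2.42 and −1.89. Of 67 other mitosis genes, 35, 26, 45 and 42 were lower in the same order, and 2 were higher in pDC WT than in cDC1 WT. The summed level of these 67 genes overlapped in WT, at 1438, 1864 and 2364 CPM in pDC against 2088 and 1938 CPM in cDC1. Their mean log2 CPM did not, at 1.98, 2.64 and 2.68 in pDC WT against 4.14 and 3.80 in cDC1 WT. Ndc80, of the kinetochore, was at −4.90 and −3.76 against cDC2 in KO and WT. Of 31 tested genes of G1 control, 5, 7, 7 and 8 were lower and 4, 4, 4 and 2 higher in the same order. Of all tested genes 9.08%, 12.8%, 10.9% and 11.4% were higher. Cdkn2d, an inhibitor of CDK4 and CDK6, was higher in pDC in all 4 (2.13 to 2.61), and Myc and E2f8 were lower in all 4 (Myc −4.16 to −2.96, E2f8 −4.31 to −2.12). Ccnd2, cyclin D2, was higher in pDC than in cDC1, by 2.23 ± 0.35 in KO and 2.85 ± 0.36 in WT (edgeR adjusted p = 0.000126 and 1.25e-05). In cDC2 it was higher than in cDC1 as well, by 2.09 ± 0.34 in KO and 2.39 ± 0.37 in WT (edgeR adjusted p = 0.0031 and 0.00132). The excess over cDC1 was thus not particular to pDC.

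Fewer of the 47 genes differed between the conventional subsets than between either of them and pDC. In cDC2 WT against cDC1 WT, 4 were higher, against 3.75% of all tested genes, and 1 was lower, against 4.98%. At an unadjusted p under 0.05 (edgeR), 13 of the 47 differed there, which is 27.7%, near the 25.4% of all tested genes. Rrm1 read 82.1 and 225 CPM in cDC2 WT against 50.4 and 43.9 CPM in cDC1 WT (1.70 ± 0.46, adjusted p = 0.0293). Top2a read 577 and 823 CPM in cDC2 WT against 252 and 194 CPM in cDC1 WT (1.65 ± 0.33, adjusted p = 0.00692). Nusap1 read 147 and 91.9 CPM in cDC2 WT against 25.8 and 43.9 CPM in cDC1 WT (1.77 ± 0.46, adjusted p = 0.0247). In none of these genes did the groups overlap. With 2 libraries a group this adds no support beyond the adjusted p-values, and its share over all tested genes is not given here. Kif11 was higher as well (1.48 ± 0.43, adjusted p = 0.0388), and Cdc20 was lower, at 2.67 and 9.64 CPM in cDC2 WT against 36.1 and 16.6 CPM in cDC1 WT (−2.06 ± 0.60, adjusted p = 0.0401).

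These counts rest on 2 libraries a group, and the cDC2 WT libraries also had fewer genes detected at equal depth than those of cDC1, whose part in the result was not tested. Leaving out 1 library gave 0 (without cDC1 WT 2), 1 (without cDC1 WT 1), 3 (without cDC2 WT 1, or without cDC2 KO 1) and up to 8 genes (without pDC KO 1, pDC KO 3 or pDC WT 3). A fit of the 2 groups alone called none, and DESeq2 called 11. In cDC2 KO against cDC1 KO none passed (edgeR, with 2 at an unadjusted p under 0.05 and 0 by DESeq2), against 1.27% of all genes. The 2 are 4.26% of the 47, against 8.76% of all tested genes at that unadjusted p. There E2f2 had the smallest p, at 134, 79.6 and 92.2 CPM in cDC2 KO against 37.8 and 48.6 CPM in cDC1 KO (1.24 ± 0.43, adjusted p = 0.259).

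Between KO and WT, 1 of the 47 genes differed past the threshold, and it did so in 1 subset. In pDC KO against pDC WT, Rrm2 was higher, against 0.0596% of all tested genes higher. Its levels of 5.70, 9.72 and 5.95 CPM in pDC KO and 0.781, 1.55 and 1.47 CPM in pDC WT came from 38, 70 and 34 counts and from 6, 12 and 13 counts. The groups did not overlap, and the log2 difference was 2.47 ± 0.41 (5.55-fold, adjusted p = 0.0249). The KO level remained below that of all conventional libraries. The adjusted p was 0.0932 without pDC KO 2, 0.0904 without pDC WT 1, 0.0524 without pDC WT 2 and 0.0751 without pDC WT 3, and 0.698 in a fit of the 2 pDC groups alone, with log2 differences of 2.18 to 2.63. In cDC2 the difference of Rrm2 was 0.70 ± 0.39 (adjusted p = 0.463), with 42.7, 29.1 and 36.3 CPM in cDC2 KO and 24.3 and 20.2 CPM in cDC2 WT. In cDC1 it was 0.01 ± 0.42. The test of the difference between subsets gave 2.47 ± 0.59 for pDC minus cDC1 and 1.78 ± 0.55 for pDC minus cDC2 (adjusted p = 0.159 and 0.398), so the effect was not shown to differ between subsets.

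Of the other 46 genes none passed in pDC (edgeR, with 8 of the 47, Rrm2 included, at an unadjusted p under 0.05, and 1, Rrm2, past the threshold by DESeq2). Those 8 are 17% of the 47, against 10.6% of all tested genes. In cDC2 KO against cDC2 WT none passed (6 at an unadjusted p under 0.05, 0 by DESeq2), against 0.119% of all genes. The 6 are 12.8% of the 47, near the 13.3% of all tested genes at that unadjusted p. In cDC1 KO against cDC1 WT none passed (5 at an unadjusted p under 0.05, 1 by DESeq2), against 0.0255% of all genes. The 5 are 10.6% of the 47, against 3.83% of all tested genes at that unadjusted p. The gene that DESeq2 called was Nusap1, at 71.6 and 208 CPM in cDC1 KO against 25.8 and 43.9 CPM in cDC1 WT (2.00 ± 0.47, adjusted p = 0.468 by edgeR). Top2a was at 383 and 572 CPM in cDC1 KO against 252 and 194 CPM in cDC1 WT (1.10 ± 0.33, adjusted p = 0.845), and Mki67 at 1.29 ± 0.61 (adjusted p = 1). In these 3 genes the cDC1 KO and cDC1 WT libraries did not overlap. With 2 libraries a group this is a description and adds no support beyond the adjusted p-values, and its share over all tested genes is not given here.

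The S phase and mitosis medians lay above 0 in every subset, and those of the G1/S genes did not. For S phase genes the median log2 difference of KO minus WT was 0.29 in pDC, 0.28 in cDC2 and 0.36 in cDC1. For mitosis genes it was 0.38 in pDC, 0.25 in cDC2 and 0.27 in cDC1. For the 4 G1/S genes it was −0.08 in pDC, −0.25 in cDC2 and 0.31 in cDC1. In cDC1 the S phase median was 0.55 and the mitosis median 0.71 without cDC1 WT 1, and they were 0.14 and 0.031 without cDC1 WT 2. In cDC2 the S phase median was 0.47 without cDC2 WT 2, and the mitosis median was 0.020 without cDC2 WT 1 and 0.40 without cDC2 WT 2. Over all tested genes the median was 0 in pDC, 0.09 in cDC2 and 0 in cDC1. By mean summed level, mitosis genes were at 2575 CPM in cDC2 KO against 2707 CPM in cDC2 WT. S phase genes were at 325 CPM in pDC KO against 332 CPM in pDC WT. The other S phase and mitosis sums were higher in KO than in WT. Averaged over the subsets, 39 of the 47 genes had a positive difference and none passed (edgeR, with 10 at an unadjusted p under 0.05 and 1, Rrm2, by DESeq2), against 0.306% of all genes. The 10 are 21.3% of the 47, against 10.2% of all tested genes. Rrm2 was at 1.06 ± 0.23 (adjusted p = 0.0718) and Mcm5 at 0.72 ± 0.23 (adjusted p = 0.27). Genes of a cell cycle class vary together, so the number of positive signs is a description.

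**Figure D5:**
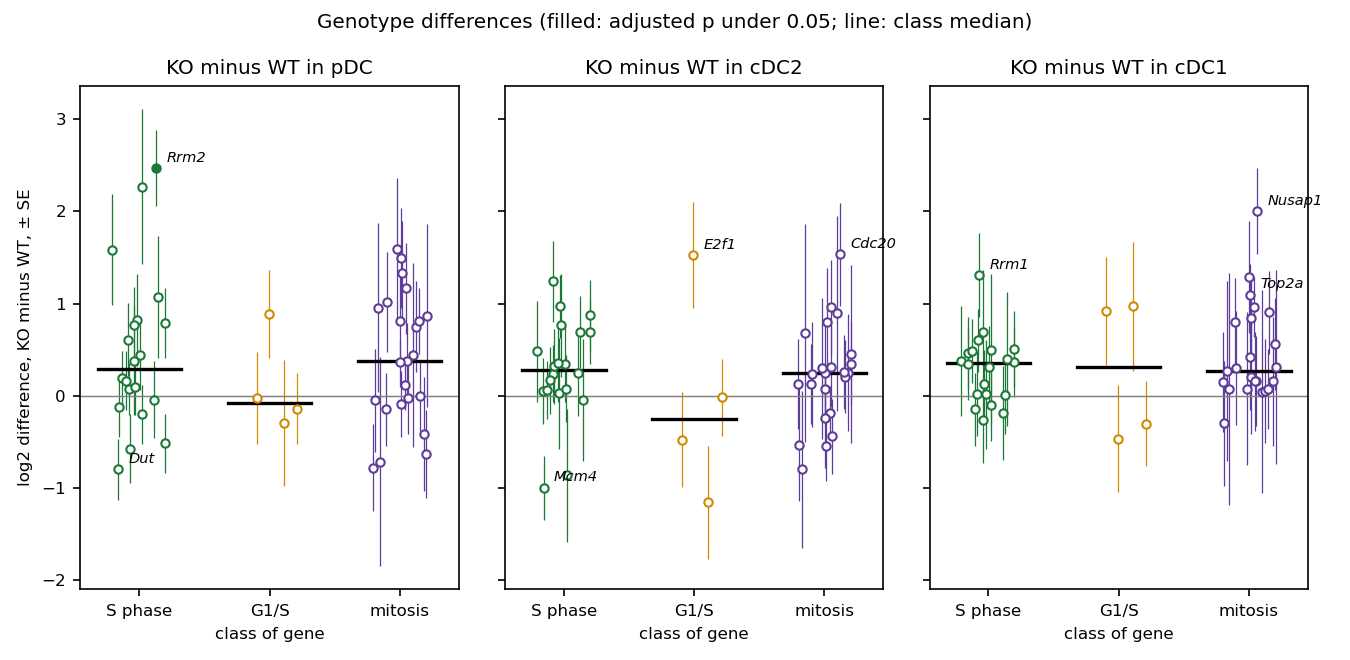
Log2 difference of KO minus WT with its standard error for each of the 47 genes by class in pDC, cDC2 and cDC1, with the class median as a line. The only filled point, past the threshold, is Rrm2 in pDC at 2.47.

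The genotype effect on the 47 genes did not differ past the threshold between subsets. The difference of the effect in pDC minus cDC1 passed for none (edgeR, 4 at an unadjusted p under 0.05, 1 by DESeq2), and so did pDC minus cDC2 (3 and 0) and cDC2 minus cDC1 (7 and 1), against 0%, 0% and 0.00851% of all genes. At an unadjusted p under 0.05 these were 8.51%, 6.38% and 14.9% of the 47, against 8.26%, 8.41% and 8.46% of all tested genes. Cdc45, with few counts in pDC, gave the largest of these values, 3.13 in pDC minus cDC2 (adjusted p = 0.481), and Nusap1 gave −2.44 ± 0.61 in cDC2 minus cDC1 (adjusted p = 0.32). Of 208 tested genes on the other pathway lists, none passed in KO against WT in pDC, cDC2 or cDC1 (edgeR, with 32, 15 and 15 at an unadjusted p under 0.05 and 4, 1 and 2 by DESeq2). At that unadjusted p these were 15.4%, 7.21% and 7.21% of the lists, against 10.6%, 13.3% and 3.83% of all tested genes.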

How the data were processed

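RNA was sequenced from the 3′ end in 15 libraries, without molecular identifiers. The authors deposited raw counts of reads per gene on mm10; STAR, HTSeq and DESeq2 are the tools listed, per the submitters' processing notes, without versions. The counts were fitted with edgeR 4.0.16 (R 4.3.3) by the quasi-likelihood test, with TMM scaling, filterByExpr over the 6 groups, 1 coefficient a group and Benjamini-Hochberg adjustment over 11746 genes. The genes filtered out held at most 0.07951% of a library's counts. SE is the absolute log2 difference over the square root of F. The steps were tested on simulated data. Replicate libraries differed by 29.99 to 107.8 times the sampling variance, so none was counted as a duplicate. The 47 members and the pathway and marker lists were chosen with earlier results of these data known. Values in every library were to be given for up to 4 members a class with the smallest p in a comparison, and always for Rrm2, Pcna, Mcm5, Mki67, Top2a, Ccnb1, Cdk1, E2f1 and Ccne1; a few more are shown for their role, picked after their values were seen. Alternatives were other scalings, filters, tools, sample sets, offsets for length and GC content, and each library left out. Coordinates are GRCm38, from GENCODE M21 and RefSeq GRCm38.p6 windows.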

Additional observations from a re-analysis of the deposited data

Results flagged for a closer look

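In 3 genes the KO and WT libraries did not overlap in either conventional subset and the difference ran in opposite directions. Mcm4 was lower in cDC2 KO than in cDC2 WT (−0.997, with 54.1, 48.0 and 52.1 CPM against 63.6 and 141 CPM) and higher in cDC1 KO than in cDC1 WT (0.47, with 65.0 and 59.9 CPM against 46.2 and 44.1 CPM). The difference of these effects, cDC2 minus cDC1, was −1.47 ± 0.52 (SE, edgeR adjusted p = 0.51). E2f1 was higher in cDC2 KO than in cDC2 WT (1.53) and lower in cDC1 KO than in cDC1 WT (−0.46), a difference of 1.99 ± 0.81 (edgeR adjusted p = 0.564). Kif11 was lower in cDC2 KO than in cDC2 WT (−0.54) and higher in cDC1 KO than in cDC1 WT (0.84), a difference of −1.39 ± 0.57 (edgeR adjusted p = 0.564). These 3 are 6.38% of the 47 genes, and 7.41% of all 11746 tested genes showed the same pattern of groups. None of the 3 differences passed the threshold of 0.05, and each rests on 2 or 3 libraries a group.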

How the results depend on the processing

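Of 52 results on single genes none reversed under the alternatives run, and 9 lost their call in some of them. These 52 were picked for the smallest p in these same data, so a reversal was unlikely from the start. Class medians of cDC2 minus cDC1 and of the difference of the genotype effect changed sign when 1 library was left out, with the ranges given further on. Over scalings, filters, tools, sample sets, offsets and the replicate block, the counts of genes lower in pDC ran from 34 to 41 against cDC1 in KO, 32 to 38 against cDC1 in WT, 36 to 42 against cDC2 in KO and 33 to 38 against cDC2 in WT. Leaving out 1 library gave 25 to 39, 23 to 39, 31 to 40 and 31 to 38. In cDC2 WT against cDC1 WT the 5 genes became 8 with RLE scaling, 11 with DESeq2, 10 without a filter, 9 with the strict filter, 0 with only these groups fitted, 2 with offsets for length and GC content, 1 with the replicate block and offsets, and 0 to 8 without 1 library; in KO, 1 gene passed with only these groups fitted. The cause was not tested. In pDC KO against pDC WT the 1 gene became 2 without a filter, 0 with only these groups fitted, 0 with the replicate block and 0 with the block and offsets, and 0 to 1 without 1 library. DESeq2 and the fit without a filter each called 1 gene in cDC1 KO against cDC1 WT and 1 averaged over the subsets. The difference of the genotype effect gave 1 (DESeq2) and 3 (no filter) genes for pDC minus cDC1, 1 (no filter) for pDC minus cDC2, and 1 (DESeq2) and 1 (no filter) for cDC2 minus cDC1.

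The S phase median of KO minus WT in cDC2 was 0.18 with RLE scaling and 0.18 with DESeq2, and the mitosis median of pDC minus cDC1 in WT was −2.56 with the replicate block and offsets. Without 1 library, KO minus WT medians ran from 0.14 to 0.55 (S phase) and 0.031 to 0.71 (mitosis) in cDC1 and from 0.23 to 0.47 (S phase) in cDC2. For pDC minus cDC1 they ran from −2.24 to −1.93 and −2.76 to −2.02 in KO and from −2.04 to −1.55 and −2.60 to −1.83 in WT. For pDC minus cDC2 in WT they ran from −2.24 to −1.80 and −2.96 to −2.24. For cDC2 minus cDC1 they ran from −0.012 to 0.22 and −0.14 to 0.53 in KO and from −0.22 to 0.37 and −0.12 to 0.80 in WT. For the difference of the genotype effect they ran from −0.12 to 0.32 and −0.29 to 0.50 (pDC minus cDC1), −0.23 to 0.22 and −0.12 to 0.52 (pDC minus cDC2), and −0.084 to 0.30 and −0.44 to 0.33 (cDC2 minus cDC1).

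Over 33 same-numbered pairs of libraries the correlation of deviations from the group mean ran from −0.182 to 0.179. Of 15 libraries, 3 correlated best with their own number. In a group of 2 libraries the deviations mirror each other, so low correlations cannot show that same-numbered libraries were unpaired. With the replicate block, Rrm2 in pDC KO against pDC WT had an adjusted p of 0.063 (edgeR), and 6 genes passed in cDC2 WT against cDC1 WT. Few counts limit Plk1, Ccnb1, Aurka and Cdc45 in pDC.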
